A study of Mus musculus with 6 samples.

Results

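Amino acid transporters are membrane proteins that move amino acids into, out of and within cells, and 55 genes of 7 of their families were measured on arrays of mouse embryonic stem (mES) cells and epiblast stem cells (EpiSC). The genes were chosen by name, as every non-control probe whose gene name in the scanner files was Slc1a, Slc3a, Slc6a, Slc7a, Slc36a, Slc38a or Slc43a followed by a number, and no measured value entered the choice. They had 95 of the 41174 probes and made up 55 of the 28786 genes named on the array. The study compared both kinds of pluripotent cell, with 3 arrays a group. The mES arrays held the lines ESF122 (replicate 1), ESF175/1 (replicate 2) and a further line whose title reads ESF58/2 and whose source reads ESF58/1 (replicate 3), grown with LIF. The EpiSC arrays held the line EpiSC-5 (replicate 1) and the line EpiSC-7 at passage 20 (replicate 2) and at passage 25 (replicate 3), grown with FGF2, so the 3 EpiSC arrays stand for 2 lines. All 6 cultures shared irradiated mouse embryonic fibroblasts as feeder cells and a DMEM medium with KSR, BME, NEAA and L-glutamine; NEAA is a supplement of non-essential amino acids. No strain, genotype or sex is given in the labels, and the RNA was total RNA of the whole culture.

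Mouse ES cells correspond to the epiblast of the blastocyst and epiblast stem cells to the epiblast after implantation, and mES cells are known for their need of threonine, which the enzyme Tdh breaks down. Transporters work in relays: sodium-coupled carriers such as those of the SLC1, SLC6 and SLC38 families accumulate small neutral amino acids, and exchangers of the SLC7 family trade these for leucine, arginine or cystine from outside. The SLC7 light chains reach the cell surface with a heavy chain, Slc3a2 (CD98) or Slc3a1, while the cationic carriers of the same family need none. SLC36 carriers run on protons, and SLC43 carriers let neutral amino acids pass by facilitated diffusion.

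The labels were checked against marker lists. Of 10 naive ES cell markers, 9 were lower in EpiSC and none higher, and of 10 postimplantation epiblast markers 6 were higher and none lower (limma, adjusted p under 0.05), with the naive marker Zfp42 at a log2 fold change of -10.53 ± 0.42 and the epiblast marker Fgf5, above background on 2 of 3 mES arrays, at 7.74 ± 1.10. Of 10 measured markers of primitive and visceral endoderm, 5 were higher in EpiSC and none lower. The summed signal of the 10 was 1448 to 1772 on mES arrays and 15800 to 41910 on EpiSC arrays. Foxa2 alone had signals of 22860, 12622 and 31109 on EpiSC replicates 1 to 3. Among the markers that did not pass, Gata4, Amn, Cubn and Hnf4a had negative log2 fold changes (-0.24, -0.66, -1.58 and -0.20). That of Dab2 was positive (0.62). Fibroblast genes of the feeder cells were present in every culture: 19 of 20 markers were measured, at least 18 of them were above background on each array, and none was without signal in a group. Their summed signal was 76360, 19160 and 97860 on mES replicates 1 to 3 and 115300, 71060 and 24690 on EpiSC replicates 1 to 3. Col1a2 had no value on mES replicate 3 and is missing from that sum. Of the 19, 1 (Acta2) was higher in EpiSC. In RNA of whole cultures, fewer cells of a type and less RNA per cell cannot be told apart. Between 66.2% and 75.4% of the probes on an array were well above background, the median processed signal was 72.4 to 120 per array, and the number of arrays limits the precision.

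Of the 55 transporter genes, 46 were measured well enough to be tested (38 above background on all arrays, 7 entering through EpiSC alone and 1 through mES alone), and 8 of them differed between the groups: 5 were higher and 3 lower in EpiSC. That is 17.4% of those tested, beside 26.3% of all 20688 genes tested, with 10.9% higher (11.8% of all genes) and 6.52% lower (14.5% of all genes). The median log2 fold change, always given as EpiSC minus mES, was -0.055 for the transporters and -0.112 for all genes, and the median size of the change without its sign was 0.528 and 0.507. In 15 of the 46 genes (32.6%) the 3 values of a group lay wholly above or below those of the other, against 48.5% of all genes. Of the 38 genes that did not pass, 16 had a positive and 22 a negative log2 fold change. In the plot of log2 fold changes by role, the genes that passed are spread over 6 of the 11 roles, and no role with more than 2 tested members had most of them pass. With the EpiSC-7 arrays averaged to 1 value, Slc38a5 (adjusted p = 0.059) and Slc6a8 (adjusted p = 0.0784) no longer passed. Without the array of each group with the lowest fibroblast signal (mES replicate 2 and EpiSC replicate 3, an alternative chosen after seeing the data), 1619 of all genes passed and 3 of the 8 transporter calls stayed, those of Slc7a6, Slc7a10 and Slc6a7. Slc7a8 and Slc6a20 passed in addition there, so that 4 transporters were higher and 1 lower. Slc6a20 and Slc7a10 had entered the test through EpiSC alone, and neither was above background on the mES arrays kept. Their calls in that setting are therefore no support by themselves. For Slc7a8, the arrays left out held its highest mES signal (340.3) and its lowest EpiSC signal (98.1), so its call there is no support either. With all arrays, the 8 genes were Slc38a5, Slc7a10, Slc38a3, Slc7a6 and Slc1a3, which were higher in EpiSC, and Slc1a5, Slc6a7 and Slc6a8, which were lower.

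**Figure D1:**
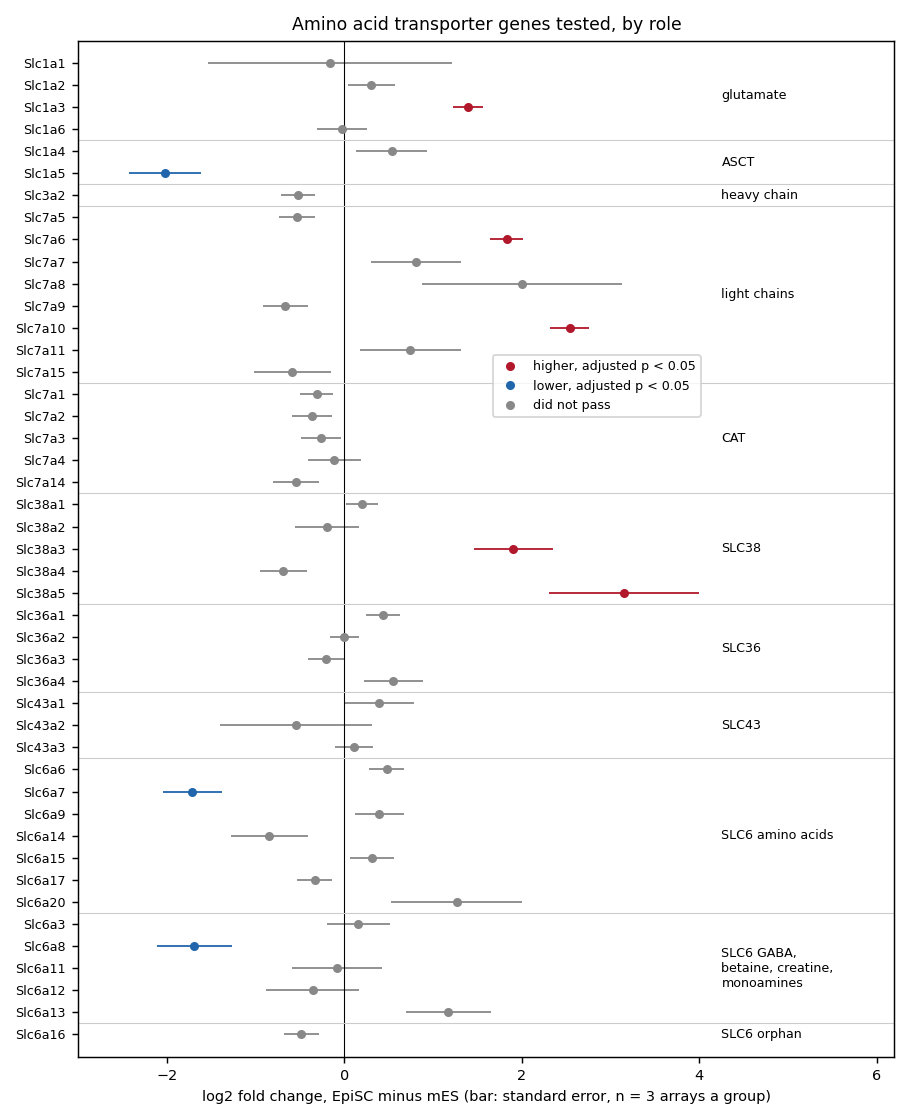
Log2 fold change of 45 of the 46 tested transporter genes (horizontal axis, EpiSC minus mES), grouped by role, with bars for the standard error of the limma fit over 3 arrays a group. Red points (5) were higher and blue points (3) lower in EpiSC at an adjusted p under 0.05, and grey points did not pass; the widest bars belong to Slc1a1 and Slc7a8.

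Values per array are given below as scaled signals, the processed intensity brought to a common 75th percentile, on an arbitrary linear scale that can be compared between arrays for 1 gene but not between genes. Each gene is represented by its brightest measured probe. All adjusted p-values are from limma with Benjamini-Hochberg adjustment over all genes tested, and the value after ± is the standard error of a log2 fold change.

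Of the neutral exchangers of the SLC1 family, 1 of 2 passed. Slc1a5 (ASCT2), which brings glutamine into cells in exchange for other neutral amino acids, had scaled signals of 9055, 5433 and 2851 on mES replicates 1 to 3 and 1286, 1279.7 and 1262 on EpiSC replicates 1 to 3. Every EpiSC array lay below every mES array; the EpiSC values were nearly equal, while the mES lines differed 3.18-fold among themselves. On average the EpiSC signal of Slc1a5 was 4.07-fold lower (log2 difference -2.03 ± 0.41, adjusted p = 0.0152). Without EpiSC replicate 3 the adjusted p was 0.0533, with a log2 fold change of -2.02. Its closest relative, Slc1a4 (ASCT1), a carrier of alanine, serine and cysteine, had signals of 1133, 552 and 415 in mES and 1069.6, 684 and 1072 in EpiSC in the same order; the groups overlapped and the gene did not pass (0.53 ± 0.40, adjusted p = 0.357). The difference between these 2 genes was not tested.

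Among the high-affinity glutamate carriers, Slc1a3 (GLAST), best known from astrocytes, was higher in EpiSC. Its scaled signals were 619, 556 and 563 on mES replicates 1 to 3 and 1299, 1661 and 1629.9 on EpiSC replicates 1 to 3. The mES values lay close together and all EpiSC values lay above them, 2.63-fold higher (1.39 ± 0.17, adjusted p = 0.00334). The other probes of Slc1a3 did not show the same difference: their log2 fold changes were 0.62 (adjusted p over all probes = 0.3) and -0.09 (adjusted p = 0.814), both on dimmer signals. Slc1a1 (EAAC1), the carrier of most cell types outside glia, had no common level in mES: its signals were 4.84, 84.1 and 242 in mES and 24.8, 72.1 and 39.3 in EpiSC. The mES values spanned 50-fold and enclosed every EpiSC array, and the fitted log2 fold change of -0.16 ± 1.38 (adjusted p = 0.941) gives the error of that spread. This probe was above background on 2 of the 3 mES arrays and entered the test through EpiSC alone. The 50-fold range therefore includes a value not above background. A second probe, above background on all arrays, had signals of 24.1, 29.95 and 74.6 in mES and 23.3, 25.8 and 27.6 in EpiSC. It gave -0.57 (limma, adjusted p over all probes = 0.345). Slc1a2 (GLT-1) and Slc1a6 (EAAT4) did not pass, at 0.30 and -0.02, and Slc1a7, a retinal carrier, was not measured above background in a whole group.

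The heavy chain Slc3a2 and the leucine carrier Slc7a5 (LAT1) form the main exchanger by which growing cells take up leucine and other large neutral amino acids. Slc3a2 had scaled signals of 28285, 23390 and 20705 on mES replicates 1 to 3 and 15450, 18886 and 15780 on EpiSC replicates 1 to 3. Slc7a5 had signals of 6457, 4962 and 4500.2 in mES and 3188, 3992 and 3755 in EpiSC, in the same order. In both genes every EpiSC array lay below every mES array, by 1.44-fold and 1.44-fold on average, yet neither passed over all genes: the log2 fold changes were -0.52 ± 0.19 (adjusted p = 0.0862) and -0.53 ± 0.20 (adjusted p = 0.098). A second probe of Slc3a2 gave -0.45. With a mean-variance trend in the fit, Slc3a2 passed (adjusted p = 0.0428). The other heavy chain, Slc3a1, was not tested: its probe was above background on no mES array and on 2 of the 3 EpiSC arrays.

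Of the light chains, Slc7a6 (y+LAT2), which trades intracellular arginine for glutamine and other neutral amino acids together with Slc3a2, was higher in EpiSC. Its scaled signals were 357, 427 and 334 on mES replicates 1 to 3 and 1279, 1183 and 1510.5 on EpiSC replicates 1 to 3. The values within each group differed 1.28-fold in mES and 1.28-fold in EpiSC at most, and all EpiSC arrays lay above all mES arrays. Slc7a6 was 3.56-fold higher in EpiSC (1.83 ± 0.18, adjusted p = 0.00169), a second measured probe gave 1.42 (adjusted p over all probes = 0.00406), and the gene passed in all 19 alternative settings tried. The promoter of Slc7a6 is shown because Slc7a6, like Slc6a7 below, passed in every setting run; the window runs from 250 bases before to 50 after a RefSeq transcript start (GRCm38.p6, chr8:106168604-106168903, plus strand, the first of 2 overlapping windows listed), and it is in lower case throughout because neither motif searched for below occurs in it.
Slc7a6: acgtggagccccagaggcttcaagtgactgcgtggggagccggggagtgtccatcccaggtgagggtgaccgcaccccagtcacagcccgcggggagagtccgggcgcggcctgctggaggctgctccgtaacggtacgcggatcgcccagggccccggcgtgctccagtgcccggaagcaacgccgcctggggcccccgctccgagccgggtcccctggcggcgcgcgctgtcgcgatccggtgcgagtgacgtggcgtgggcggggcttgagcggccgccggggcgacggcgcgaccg

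Slc7a10 (Asc-1), a carrier of glycine, alanine and serine including D-serine, was above background in EpiSC only. Its scaled signals were 4.02, 3.74 and 4.57 on mES replicates 1 to 3 and 18.7, 24 and 29.9 on EpiSC replicates 1 to 3. No mES array was well above background and all 3 EpiSC arrays were, so Slc7a10 entered the test through EpiSC alone, its adjusted p is no support by itself, and the difference has a bound only. It was at least 1.39-fold higher in EpiSC (adjusted p of the fit = 0.00104, on mean normalised log2 signals of -7.42 in mES and -4.89 in EpiSC). Among probes above background on all 6 arrays, which leaves Slc7a10 out, 4 transporters were higher and 3 lower. With the normexp background correction the log2 fold change of Slc7a10 was 0.17 and the adjusted p 0.406.

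Slc7a8 (LAT2), a carrier of neutral amino acids of many sizes, divided the EpiSC arrays. Its scaled signals were 112, 340.3 and 63 on mES replicates 1 to 3 and 1311, 1211 and 98.1 on EpiSC replicates 1 to 3. The first and the second EpiSC array lay above every mES array, and EpiSC replicate 3, a later passage of the line on replicate 2, lay within the mES range; the EpiSC arrays spanned 13.4-fold. Slc7a8 did not pass (2.01 ± 1.13, adjusted p = 0.225), and without EpiSC replicate 3 it did (3.23, adjusted p = 0.0416). That array also had the lowest fibroblast signal of its group, 24690, and in mES the order was not the same, as the highest Slc7a8 value fell on replicate 2, with the lowest fibroblast signal of its group. The part of feeder cells in this difference was not tested. Without the array lowest in fibroblast signal in each group, the log2 fold change was 3.91 and the adjusted p 0.0115. That setting leaves out the highest mES and the lowest EpiSC value of Slc7a8, so the call in it is no support by itself.

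The other light chains did not pass. Slc7a7 (y+LAT1), which exports arginine at the base of kidney and gut cells, had uneven signals of 26457, 23956 and 9269 in mES and 22792, 53691 and 25463 in EpiSC, lowest on mES replicate 3 and highest on EpiSC replicate 2 (0.80 ± 0.51, adjusted p = 0.273). Slc7a9, the partner of Slc3a1 in cystine uptake, was lower on all EpiSC arrays than on any mES array (-0.67 ± 0.25, adjusted p = 0.0947), and it passed without mES replicate 3 (-0.88, adjusted p = 0.0396). Slc7a11 (xCT), which imports cystine in exchange for glutamate, was dim, with signals of 27.4, 7.21 and 5.82 in mES and 17.4, 20.1 and 15.4 in EpiSC; it was above background on 1 mES array and on all EpiSC arrays (0.74 ± 0.57, adjusted p = 0.363). The mES array above background, replicate 1, had the highest value of all, and with the normexp correction the log2 fold change was -0.16. Slc7a15 stood at -0.59, and Slc7a12 and Slc7a13 were above background on no array.

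None of the 5 cationic carriers passed. Slc7a3 (CAT-3), an arginine and lysine carrier, was well above background on every array, with scaled signals of 30125, 27115 and 21754 on mES replicates 1 to 3 and 17759, 27210 and 21300 on EpiSC replicates 1 to 3. The groups overlapped (-0.26 ± 0.23, adjusted p = 0.417). Slc7a1 (CAT-1), the arginine carrier of most dividing cells, had signals of 131, 102 and 135 in mES and 107, 97.8 and 90 in EpiSC, which overlapped as well (-0.31 ± 0.18, adjusted p = 0.242). Slc7a2, Slc7a4 and Slc7a14 stood at log2 fold changes of -0.36, -0.11 and -0.55.

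**Figure D2:**
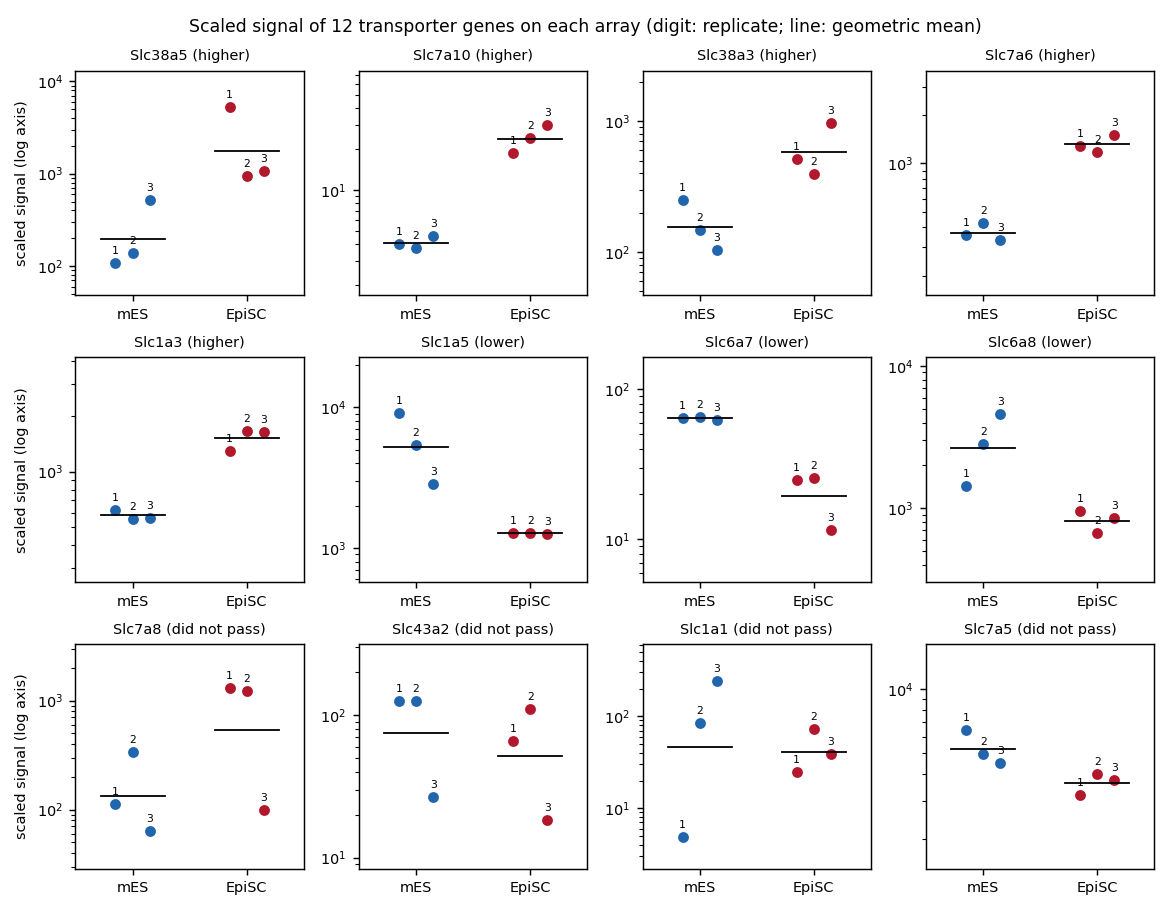
Scaled signal (vertical log axis, arbitrary units) of 12 transporter genes on each of the 3 mES arrays (blue) and the 3 EpiSC arrays (red); digits are replicate numbers and lines the geometric means. The first 8 panels hold the genes that passed, with no overlap of the groups, and the last 4 show genes that did not. Among these are Slc7a8, with EpiSC replicate 3 apart from the other EpiSC arrays, and Slc1a1, with 50-fold spread among mES values. The Slc1a1 probe was above background on 2 of the 3 mES arrays.

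In the SLC38 family of sodium-coupled neutral carriers, 2 of 5 tested members were higher in EpiSC and none lower. Slc38a5 (SNAT5), a glutamine carrier that can work in both directions, had scaled signals of 107, 138 and 513 on mES replicates 1 to 3 and 5214, 944 and 1079 on EpiSC replicates 1 to 3. All EpiSC values lay above all mES values, with EpiSC-5 (replicate 1) far above both EpiSC-7 arrays and mES replicate 3 above the other mES lines. Of the 10 measured endoderm markers, 5 were higher in EpiSC, and all 10 were above background on at least 5 of the 6 arrays. Some had the order of Slc38a5 over the EpiSC arrays. Gata6 had signals of 176, 174 and 307 in mES and 7757, 916 and 2218 in EpiSC. Sox17 had 132, 62.7 and 114 in mES and 4511, 783 and 1506 in EpiSC. Rbp4, Gata4, Amn, Cubn and Dab2 had that order as well. Another order was seen in Foxa2 (22860, 12622 and 31109 in EpiSC), Sox7 (70.1, 51.6 and 34.4) and Hnf4a (84.9, 100 and 75.3). The part of these markers in the difference of Slc38a5 was not tested. Slc38a5 was 8.88-fold higher (3.15 ± 0.84, adjusted p = 0.0373). The call rested on single arrays: the adjusted p was 0.102 without mES replicate 1, 0.0946 without mES replicate 2, 0.0765, 0.0533 and 0.0724 without EpiSC replicates 1, 2 and 3, and 0.0238 without mES replicate 3, with log2 fold changes of 2.36 to 3.84. Slc38a3 (SNAT3), the glutamine carrier of liver, kidney and astrocytes, had signals of 250, 148 and 103 in mES and 511, 398 and 975 in EpiSC. The highest mES value, of replicate 1, lay below the lowest EpiSC value, of replicate 2, and the gene was 3.74-fold higher in EpiSC (1.90 ± 0.44, adjusted p = 0.0249). The adjusted p of Slc38a3 was 0.0649 and 0.0558 without mES replicates 2 and 3 and 0.0616 and 0.0648 without EpiSC replicates 1 and 3.

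Replicate 3 of each group lay at another place on its slide (position 1) than the other arrays (position 4), and each slide held 1 group only. Among position 4 arrays alone, the log2 fold change was 4.19 for Slc38a5 (adjusted p = 0.0517) and 1.23 for Slc38a3 (adjusted p = 0.0859), and between the position 1 arrays the differences were 1.07 and 3.24. The promoter window of Slc38a5 is shown because its log2 fold change was the highest of the 46; it is credited to RefSeq (GRCm38.p6, chrX:8271131-8271430, plus strand), and the capitals mark a CACGTG hexamer, the E-box, described below.
Slc38a5: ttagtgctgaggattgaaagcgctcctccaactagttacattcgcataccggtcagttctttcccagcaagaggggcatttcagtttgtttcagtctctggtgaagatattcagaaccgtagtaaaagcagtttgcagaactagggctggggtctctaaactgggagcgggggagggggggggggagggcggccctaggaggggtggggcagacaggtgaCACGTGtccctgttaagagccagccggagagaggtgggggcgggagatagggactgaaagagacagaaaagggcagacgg

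The other SLC38 members gave smaller differences that depended on the probe. Slc38a2 (SNAT2), the carrier that cells raise when amino acids run short, had scaled signals of 26819, 23696 and 10625 on mES replicates 1 to 3 and 15005, 17302 and 17243 on EpiSC replicates 1 to 3, with the lowest value on mES replicate 3 and no separation of the groups (-0.20 ± 0.36, adjusted p = 0.708). Slc38a1 (SNAT1), a glutamine carrier, had 6 probes: its brightest gave 0.20 ± 0.18 (adjusted p = 0.449), while 2 dimmer probes passed by themselves with 0.85 and 0.85 (adjusted p over all probes = 0.0266 and 0.0402). Slc38a4 (SNAT4), an imprinted gene in the mouse, was lower on every EpiSC array, with signals of 2522, 2210.4 and 4125 in mES and 1978, 1578 and 1764 in EpiSC and a log2 fold change of -0.69 ± 0.27 that did not pass (adjusted p = 0.104). Its second probe did pass, at -1.91 (adjusted p over all probes = 0.00562). The family members that the array lists under older names, Slc38a7, Slc38a8, Slc38a9 and Slc38a10, are outside the naming rule; none passed, and Slc38a9 had the largest change at -0.53 (adjusted p = 0.126).

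Of the SLC6 carriers, the creatine transporter Slc6a8 was lower in EpiSC. Its scaled signals were 1436, 2813 and 4584 on mES replicates 1 to 3 and 952, 669 and 861 on EpiSC replicates 1 to 3. All EpiSC arrays lay below all mES arrays, by 3.23-fold on average, and the mES lines differed 3.19-fold (-1.69 ± 0.42, adjusted p = 0.0309). The adjusted p was 0.0776 without mES replicate 2 and 0.0693, 0.0845 and 0.0839 without EpiSC replicates 1, 2 and 3; with position 4 arrays alone it was 0.107 at a log2 fold change of -1.33, and between the position 1 arrays the difference was -2.41. Slc6a7 (PROT), a proline carrier known from brain synapses, was evenly measured in mES, with signals of 64.1, 65 and 62.5 in mES and 24.8, 25.8 and 11.5 in EpiSC. The mES values differed by only 1.04-fold and every EpiSC value was below them, 3.29-fold lower on average (-1.72 ± 0.33, adjusted p = 0.0137). Its brightest probe was above background on 2 of the 3 EpiSC arrays and entered the test through mES alone. The adjusted p of that probe is therefore no support by itself, and its 3.29-fold difference includes an EpiSC value not above background. A second probe, above background on all 6 arrays, gave -1.33 (limma, adjusted p over all probes = 0.00359). The gene passed in all 19 alternative settings.

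The remaining amino acid carriers of the family did not pass. Slc6a9 (GlyT1), the glycine carrier of early embryos and many other cells, had scaled signals of 2043, 1847 and 1183 on mES replicates 1 to 3 and 2583, 2299 and 1708 on EpiSC replicates 1 to 3, which overlapped (0.39 ± 0.28, adjusted p = 0.317). Slc6a6, the taurine carrier, lay higher on every EpiSC array, with signals of 4689, 6563 and 5261 in mES and 8520.4, 6788 and 7556 in EpiSC, and did not pass (0.48 ± 0.20, adjusted p = 0.117), while a dimmer probe of it did (0.98, adjusted p over all probes = 0.0253). Slc6a14, Slc6a15 and Slc6a17 stood at -0.85, 0.31 and -0.33. The probe listed as Slc6a20 belongs to Slc6a20b by its RefSeq accession; it was above background on 1 mES array only, replicate 2 (1.27 ± 0.74, adjusted p = 0.239), so that without this array no mES value was above background. Slc6a5, Slc6a18 and Slc6a19 were not tested.

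The carriers of GABA, betaine and monoamines described here did not pass. Slc6a13 (GAT2) had scaled signals of 128, 94.5 and 36.2 in mES and 148, 225 and 149.8 in EpiSC; all EpiSC values were above the mES values and the gene did not pass (1.17 ± 0.48, adjusted p = 0.116). Slc6a11, Slc6a12 and the dopamine carrier Slc6a3 had log2 fold changes of -0.09, -0.36 and 0.15, and the noradrenaline and serotonin carriers Slc6a2 and Slc6a4 were not tested. Slc6a16, a member with no known substrate, was lower on every EpiSC array and did not pass (-0.48 ± 0.20, adjusted p = 0.116).

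No proton-coupled or SLC43 carrier passed. Slc36a1 (PAT1), found on lysosomes, had scaled signals of 136, 139 and 170.5 in mES and 219, 167 and 219.9 in EpiSC, and its overlap was narrow, between mES replicate 3 and EpiSC replicate 2 (0.44 ± 0.19, adjusted p = 0.138). Slc36a2 had nearly equal means, with signals of 40, 42.6 and 38.1 in mES and 36.4, 45.4 and 39.1 in EpiSC, and Slc36a3 and Slc36a4 stood at -0.20 and 0.55. A dimmer probe of Slc36a3 passed at -1.13 (limma, adjusted p over all probes = 0.0473). It was above background on 2 of the 3 EpiSC arrays and entered the test through mES alone, so this p is no support by itself. Another dimmer probe, above background on all arrays, did not pass (-1.03, adjusted p over all probes = 0.0639). Slc43a2 (LAT4), a leucine and phenylalanine carrier, had signals of 125, 126 and 26.8 in mES and 66.3, 111 and 18.3 in EpiSC. Both replicate 3 arrays were low in it, and these were the arrays at position 1 of their slides; in EpiSC, replicates 2 and 3 are 1 line on 1 slide, so there the passage and the position cannot be told apart, and in mES the line and the position cannot. Slc43a1 (LAT3) and Slc43a3 stood at 0.39 and 0.11.

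**Figure D3:**
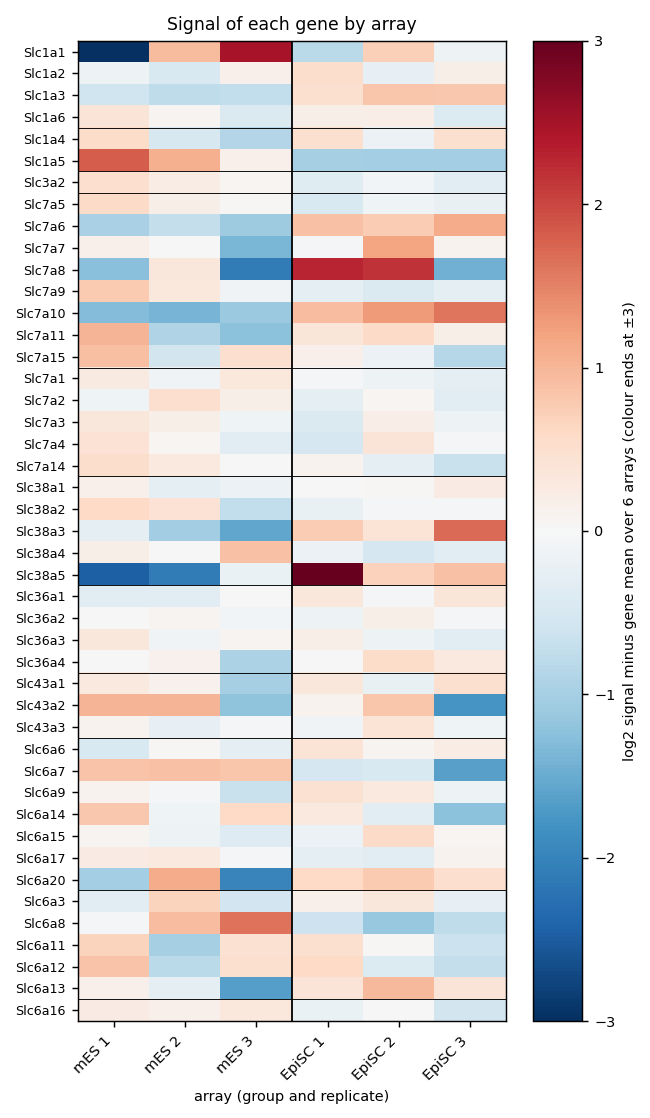
Log2 scaled signal of 45 of the 46 tested transporter genes (rows, grouped by role) on each array (columns), minus the gene's mean over the 6 arrays; red is above and blue below that mean, and the colour ends at 3 log2 units either way. Slc1a5, Slc7a6 and Slc7a10 change colour between the groups, whereas Slc1a1, Slc7a8 and Slc43a2 differ among arrays of 1 group.

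Arrays of a group differed among themselves in many transporters. The highest and the lowest mES array were at least 2-fold apart in 20 of the 46 genes (43.5%), against 23.2% of all genes tested, and the EpiSC arrays were so in 11 (23.9%), against 17.7% of all genes. These shares are a description without a test, and the levels of the 46 genes were not matched to those of all genes. The lowest mES value fell on replicate 3 in 26 of the 46 genes, and in 48.3% of all genes. Several genes lie next to each other on their chromosomes in the RefSeq order of GRCm38.p6: Slc36a3, Slc36a2 and Slc36a1, then Slc38a1, Slc38a2 and Slc38a4, then Slc6a13 with Slc6a12. No gene of these groups passed, and the neighbours Slc6a13 and Slc6a12 had opposite signs (1.17 and -0.36).

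**Figure D4:**
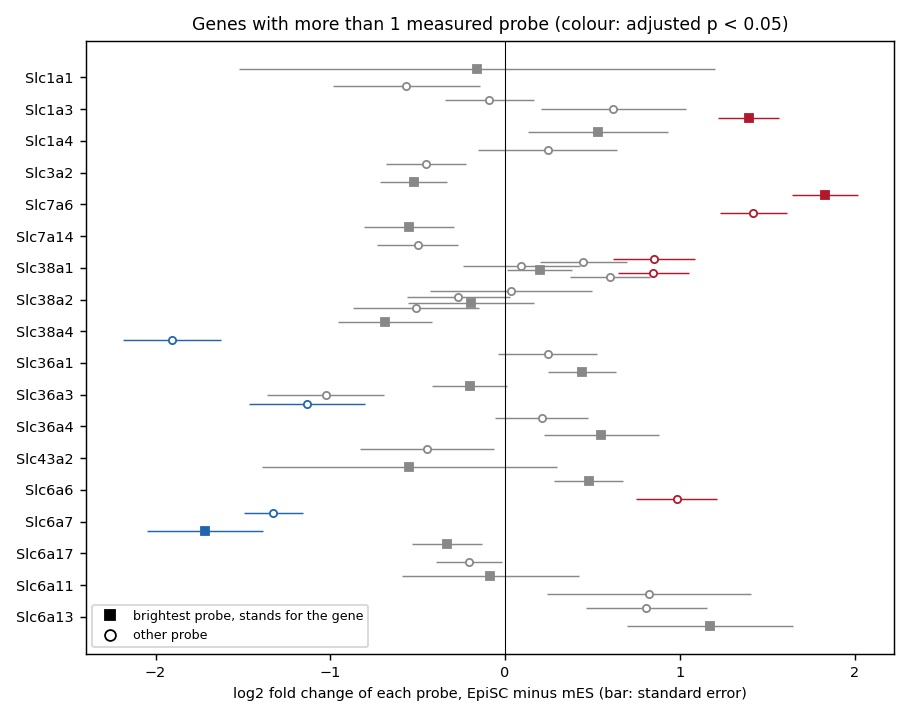
Log2 fold change (EpiSC minus mES) with its standard error for each measured probe of the 18 genes with more than 1; filled squares are the brightest probe, which stands for the gene, open circles other probes, and colour marks an adjusted p under 0.05 over all probes. In 3 of the 18 genes the probes had both signs, and in Slc1a3, Slc38a1, Slc38a4, Slc36a3 and Slc6a6 some probes passed and others did not. The Slc36a3 probe that passed entered the test through mES alone.

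Cells raise many transporters through the factor ATF4 when amino acids are scarce, and a motif of its targets, TGATGNAA (TTNCATCA on the other strand), was looked for in promoters on both strands, as was CACGTG, the E-box, which reads the same on both strands. Promoter windows from RefSeq (GRCm38.p6) were found for 31 of the 46 tested genes, in 51 windows. TGATGNAA occurred in 4 of the 51 windows, of the 3 genes Slc1a4, Slc7a11 and Slc7a7, and in 3.97% of all 32851 windows of the table. CACGTG occurred in 7 of the 51 windows, of 7 genes, Slc1a6, Slc36a1, Slc38a5, Slc43a1, Slc6a16, Slc6a3 and Slc7a14, and in 7.15% of all windows. Of these 10 genes Slc38a5 alone passed the test between the groups. A match is a description of the letters and shows no binding. The windows of Slc7a11 (chr3:50443564-50443863, minus strand) and Slc1a4 (chr11:20332664-20332963, minus strand) are shown, 5′ to 3′, because they hold the ATF4 motif, in capitals; the motif occurs on both strands in Slc7a11.
Slc7a11: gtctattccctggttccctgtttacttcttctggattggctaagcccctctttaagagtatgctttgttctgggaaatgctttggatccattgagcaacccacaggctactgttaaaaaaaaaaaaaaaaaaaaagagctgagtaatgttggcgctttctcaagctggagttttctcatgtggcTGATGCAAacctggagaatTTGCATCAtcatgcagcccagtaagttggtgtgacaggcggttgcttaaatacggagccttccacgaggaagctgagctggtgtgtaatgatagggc
Slc1a4: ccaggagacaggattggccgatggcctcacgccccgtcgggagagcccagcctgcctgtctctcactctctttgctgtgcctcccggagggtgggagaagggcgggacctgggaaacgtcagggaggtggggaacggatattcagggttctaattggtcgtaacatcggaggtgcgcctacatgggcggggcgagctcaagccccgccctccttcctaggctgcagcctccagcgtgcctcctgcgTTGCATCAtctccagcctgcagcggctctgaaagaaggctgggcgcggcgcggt

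Genes that use or sense the transported amino acids were followed in 8 lists, to be read against 11.8% of all genes higher and 14.5% lower. Of 25 genes of ATF4 and the amino acid response, 9 were lower and 1 higher in EpiSC, and the median log2 fold change was -0.50. The lower genes included Nupr1 (-3.10), Trib3, a pseudokinase (-2.12), and the leucine sensor Sesn2 (-1.63), and the higher one was Atf3 (2.31). The transcript of Atf4 itself had signals of 4491, 4046 and 2399 in mES and 3814, 3119 and 3229 in EpiSC and did not pass (-0.06 ± 0.27, adjusted p = 0.883). Sesn2 had scaled signals of 22478, 20911 and 20868 on mES replicates 1 to 3 and 5849, 7121 and 7958 on EpiSC replicates 1 to 3, with all EpiSC values below all mES values (adjusted p = 0.00225). Of 27 measured genes of amino acid sensing upstream of mTORC1, 7 were lower and none higher (median -0.28), among them Sesn2, Tsc1 (-1.50) and the GATOR2 subunit Wdr59 (-1.06). Sesn2 is 1 of 12 genes that stand in 2 of the lists.

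Breakdown of threonine, glycine and serine had 5 of 19 measured genes lower and none higher (median -0.18). The largest of all differences in the lists was that of threonine dehydrogenase, Tdh, with scaled signals of 50563, 81090 and 102880 on mES replicates 1 to 3 and 202, 302 and 388 on EpiSC replicates 1 to 3 (-8.03 ± 0.35, adjusted p = 0.000108); the next enzyme, Gcat, was at -1.41 and the glycine decarboxylase Gldc at -1.49. In glutamine, glutamate and proline metabolism, 5 of 20 genes were lower and 1 was higher, and the median was -0.14. The lower genes included the glutaminase Gls2 (-2.17), the proline-breakdown enzyme Aldh4a1 (-1.52) and asparagine synthetase, Asns (-1.25). Arginine and polyamine metabolism moved both ways: 5 of 17 measured genes were lower and 3 higher (median -0.48). Ass1, which makes the precursor of arginine, was at -3.25, and Arg2 and Nos1, above background on no EpiSC array, were at least 4.19-fold (adjusted p = 0.00237) and at least 3.74-fold lower (adjusted p = 0.00154); both entered the test through mES alone, so these p-values are no support by themselves. The higher genes were the arginase Arg1 (2.34, above background on 1 of 3 mES arrays) and both enzymes of creatine synthesis, Gatm (1.83, above background on 2 of 3 mES arrays) and Gamt (0.76). Arg1 and Gatm entered the test through EpiSC alone, and part of their mES values lies at background, while the creatine carrier Slc6a8, described above, was lower.

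The list of cystine and glutathione metabolism, which also holds redox genes such as Nqo1 and Srxn1, had 9 of 17 genes lower and 1 higher (median -0.97). The cystine carrier Slc7a11, above background on 1 mES array, did not pass. The lower genes included the quinone reductase Nqo1, with scaled signals of 1622, 1544 and 2089.8 on mES replicates 1 to 3 and 169, 168 and 104 on EpiSC replicates 1 to 3 (-3.59 ± 0.25, adjusted p = 0.000519), the cystathionine synthase Cbs (-1.93) and the sulfiredoxin Srxn1 (-1.45), and the higher one was Ggt7 (1.82). Of 17 genes of branched-chain amino acid breakdown, 3 were lower and none higher (median -0.34), namely the transaminase Bcat2 (-1.23), Mccc1 (-1.11) and the phosphatase Ppm1k (-0.82). Among 16 measured carriers of other families, 2 mitochondrial carriers were lower, the aspartate and glutamate carrier Slc25a12 (-2.76) and the ornithine carrier Slc25a15 (-0.89), and the lysosomal Slc17a5 was higher (0.85), with a median of -0.12.

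**Figure D5:**
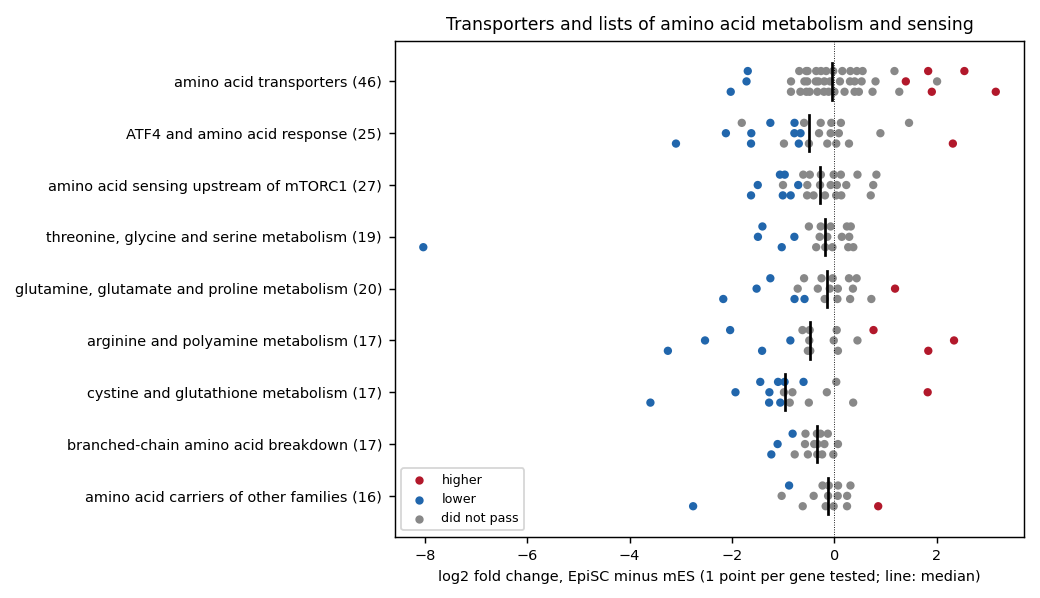
Log2 fold change (horizontal axis, EpiSC minus mES) of every tested gene of the transporter set and of 8 lists of amino acid metabolism and sensing, with the number tested in brackets, a line at each median and colour for genes that passed. Tdh lies alone near -8, and the cystine and glutathione list has the lowest median, -0.97.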

How the data were processed

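Per the labels' protocols, total RNA (TRIzol) carried a Cy3 label, and each 1-colour Agilent array took the RNA of 1 culture. The scanner files that the authors deposited hold linear intensity values per spot and were made with Feature Extraction 9.1.3.1, per the file headers, with detrending within each array and no normalization between arrays. The series' value table deposited by the authors, also an intensity on a linear scale with no centring, differed from the processed signal by at most 0.00716 on the log2 scale. No source used here gives the probes' genome build.

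From these files, control and outlier spots were left out, spots of 1 probe were averaged, and each array's 75th percentile was subtracted from its log2 signals. Probes were used where 1 group or both had them well above background on all 3 arrays, with at most 1 missing value a group, and the entering probe with the highest mean stood for its gene. Of 41174 probes, 22951 were named through their accession with RefSeq's table of GRCm38.p6, among them 77 of the 95 transporter probes, and the others kept the scanner files' names, which can be old. EpiSC and mES were compared by limma 3.58.1 (R 4.3.3; lmFit and eBayes, two-sided, Benjamini-Hochberg over 20688 genes, threshold 0.05), tested on simulated data with known changes. A fold against a group not above background is a bound, taken on each dim array against the lowest signal well above background, or against the gene's signal where that is higher.

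The replicates are separate cultures, of 3 mES lines and of 2 EpiSC lines, 1 of them at 2 passages. They lay on 4 slides, each with 1 group only, so slide and group can be told apart only as far as a group spans several slides. Every transporter could be named. Values per array are given for those that passed and for a fixed set of well-known carriers other than Slc38a1. They are also given for some carriers outside that set, such as Slc1a1, Slc7a8 and Slc43a2, whose choice was not fixed in advance. In each list up to 3 genes a direction with the largest change are named. Atf4 was added after its values were seen, and 1 transporter and 1 gene of the lists are counted but not reported here by name. The members and lists were chosen with earlier results of these data known. Alternatives covered scaling, background correction, filters, probes, the variance model, slide, position, the EpiSC-7 arrays, single arrays and the value table.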

Additional observations from a re-analysis of the deposited data

How the results depend on the processing

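The transporter counts of 5 higher and 3 lower and the 5436 genes called of all genes were recomputed under 19 alternatives. At least 1 of the counts moved by over 1.5 times under the 4 settings named next and when some single arrays were left out. With the slide as a random block, 12 transporters were higher, 13 lower and 11789 of all genes passed; each slide held 1 group and the fitted correlation was -0.68, so calls gained there are no support. With position 4 arrays only, 3 transporters were higher and 2700 genes passed. With no filter on dim probes, 5 were lower and 8716 genes passed. Without the arrays lowest in fibroblast markers, an alternative chosen after seeing the data, 1 was lower and 1619 genes passed. Leaving out 1 array at a time gave 3 to 5 higher, 1 to 4 lower and 3019 to 4819 genes of all. The remaining alternatives kept each count within 1.5 times its value.

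Of 868 tested values of single transporters under the alternatives, 772 kept their direction and side of the threshold, 26 lost the call, 25 gained one and 45 changed sign. The 45 belong to 14 genes, all of which did not pass, and the cause was not tested. The log2 fold change was 0.075 for Slc1a6, 0.099 for Slc36a2 and 0.013 for Slc6a11 with median scaling, and 0.017 for Slc1a1, 0.14 for Slc36a2, 0.0089 for Slc38a2, 0.074 for Slc6a11 and 0.0012 for Slc7a4 with quantile normalization. It was -0.099 for Slc1a2, -0.014 for Slc6a20, -0.21 for Slc6a3 and -0.16 for Slc7a11 with normexp, and 0.00053 for Slc36a2 with the series' value table. It was 0.31 for Slc1a1, 0.066 for Slc36a2 and 0.019 for Slc7a4 with the slide as a block, 1.07 for Slc1a1, -0.15 for Slc43a1, 0.43 for Slc6a11 and 0.063 for Slc6a12 with position 4 arrays only, and 0.023 for Slc1a6 and 0.047 for Slc6a11 with EpiSC-7 averaged. Without the arrays lowest in fibroblast markers it was 0.31 for Slc1a1, 0.21 for Slc1a6, 0.060 for Slc36a2 and 0.57 for Slc43a2. Leaving out 1 array at a time gave Slc1a1 -1.79 to 1.03, Slc1a6 -0.25 to 0.17, Slc36a2 -0.089 to 0.071, Slc38a2 -0.61 to 0.055, Slc43a1 -0.011 to 0.63, Slc43a2 -1.29 to 0.20, Slc43a3 -0.071 to 0.20, Slc6a11 -0.61 to 0.23, Slc6a3 -0.093 to 0.52 and Slc7a4 -0.33 to 0.11.

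Calls that were lost under other settings are given with the genes. Without the arrays lowest in fibroblast markers the adjusted p was 0.0511 for Slc1a3, 0.112 for Slc1a5, 0.133 for Slc38a3, 0.143 for Slc38a5 and 0.158 for Slc6a8, and Slc38a5 lost its call with position as a block (adjusted p = 0.0524). Dim probes limit Slc7a10, Slc7a11 and the monoamine carriers, and 9 genes were not tested at all. No paired analysis was possible because the replicate numbers come from the order of the samples and match no culture of 1 group to one of the other.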
